A study of Mus musculus with 30 samples.

Results

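The autophagy genes described here are 40 mouse genes listed by symbol, which cover the steps from the start of an autophagosome to the recognition of its cargo, together with the MiT/TFE transcription factors of the pathway. They were matched by symbol to the Ensembl identifiers of the count table. All 40 were among the 49089 identifiers counted, and 39 were among the 11368 genes that passed the filter on low counts. Atg2a, which encodes a lipid transfer protein, is listed at 0 counts in all 30 libraries and could not be tested.

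RNA-seq was performed on AML12 cells, an immortalised mouse hepatocyte line, in which FoxK1, FoxK2 or both had been lowered by transient transfection of siRNA. FoxK1 and FoxK2 are forkhead transcription factors that bind DNA through a winged-helix domain. The Control cells received a nonsilencing siRNA, and the other genotypes are called FoxK1 KD, FoxK2 KD and DKD, for the double knockdown. All cells, Control included, were deprived of serum overnight in medium with 0.1% bovine serum albumin, and were then collected without insulin (basal, given as time 0 in the labels, although the protocol describes a mock treatment) or after 6 h with 100 nM insulin. There were 4 libraries in each of the 8 groups of genotype and insulin, except for 3 in insulin-treated Control and 3 in insulin-treated DKD. Since nothing states that the libraries of a group came from separate cultures, the p-values below measure the spread between these libraries, which may be technical. In extracts of whole cultures, fewer cells that express a gene and less RNA per cell cannot be told apart.

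Macroautophagy encloses cytoplasm in a double membrane, the autophagosome, which fuses with the lysosome. The ULK kinase complex starts the process and a class III PI3-kinase complex marks the membrane with phosphatidylinositol 3-phosphate (PI3P), which WIPI proteins bind, while ATG9 and ATG2 supply lipid. A ubiquitin-like conjugation system then attaches ATG8 proteins (the LC3 and GABARAP families) to the membrane, where they hold cargo receptors such as p62, the product of Sqstm1. In liver, autophagy is known to be high in fasting, and insulin is known to restrain it through the kinase mTOR, which acts on the ULK complex and on the transcription factor TFEB.

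Expression is given as CPM, a gene's counts scaled by the TMM-adjusted total of its library, and differences as log2 fold changes with their standard error (SE) from the quasi-likelihood test of edgeR over all genes that passed the filter. A gene is called upregulated or downregulated where the p-value, adjusted over all of these genes by the method of Benjamini and Hochberg, was below 0.05. The libraries held 2141460 to 5668270 counts. The siRNA targets were lowered in the libraries so labelled. Foxk1 measured 87.4, 83.3, 66.1 and 88.2 CPM in basal Control, 38.8, 27.3, 38.7 and 41.9 CPM in FoxK1 KD and 44.1, 49.6, 48.9 and 42.8 CPM in DKD, and Foxk2 measured 149, 144, 133 and 134 CPM in basal Control, 46.2, 49.3, 50.5 and 42.8 CPM in FoxK2 KD and 51.8, 54.5, 52.2 and 41.7 CPM in DKD. Neither target overlapped between its knockdowns and Control. The epithelial keratins Krt8 and Krt18 averaged 704 and 1099 CPM and the hepatocyte factor Hnf4a 134 CPM over all libraries, whereas Alb (albumin) averaged 10.3 CPM and Apoa1 0.525 CPM, so that these secreted hepatocyte proteins were low. The other secreted hepatocyte markers ranged from 0.13 CPM (Apoa2) to 38.1 CPM (Serpina1b). The summed level of 11 hepatocyte markers, of which Krt18 and Krt8 were the highest, was 1508.5 to 2455.2 CPM in the basal Control libraries and 2347.1 to 2435.8 CPM in basal DKD. Of 5 blood cell markers, of which only Csf1r passed the filter and Adgre1 was at 0, the sum was 8.21 to 12.9 CPM in basal Control, 15.7 to 17.9 CPM in basal DKD and 4.08 to 6.32 CPM in Control with insulin. Group means of the summed cholangiocyte markers were 1568.6 to 2628.8 CPM. Over all libraries, Spp1 averaged 1388 CPM, Krt19 486 CPM, Sox9 200 CPM and Krt7 24.4 CPM, with Epcam at 0. Group means of the summed stellate and endothelial markers, none of which passed the filter, did not exceed 1.18 and 0.198 CPM. The part of these shifts in the results was not tested. Basal Control replicate 1 stood apart from the other 3 basal Control libraries for several autophagy genes, with 412 CPM of Map1lc3b against 234 to 283 CPM and 54.0 CPM of Atg101 against 19.5 to 25 CPM, so the calls that change when it is left out are given beside the comparisons.

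Levels of different genes were compared as CPM per kilobase of exon, with the mean and SD of the 4 basal Control libraries. Gabarap, which encodes an ATG8 protein, stood at 341 ± 76.2 and Sqstm1 at 271 ± 32.5 CPM per kb (SD, n = 4), and their ranges overlapped (255.6 to 423.8 and 248 to 319 CPM per kb). Nbr1, which encodes another cargo receptor, followed at 73.0 ± 5.73 CPM per kb, with no overlap with Sqstm1 above it or with Tax1bp1 below it (44.5 ± 5.45 CPM per kb). From Tax1bp1 down to Atg9a (5.69 ± 0.96 CPM per kb), neighbours in the order overlapped, as with Map1lc3b, the gene of LC3B, at 39.2 ± 10.7 CPM per kb. Atg4d and Atg10 lay below Atg9a without overlap. Among the ATG8 genes, Map1lc3a was the lowest at 6.18 ± 1.16 CPM per kb. The transcription factor genes Mitf (1.33 ± 0.164 CPM per kb) and Tfeb (1.02 ± 0.256 CPM per kb) had the lowest levels of the 39 genes tested, and their ranges overlapped. When coding length was used in place of exon length, Gabarap and Sqstm1 kept the first places and Nbr1 moved from place 3 to 7.

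**Figure D1:**
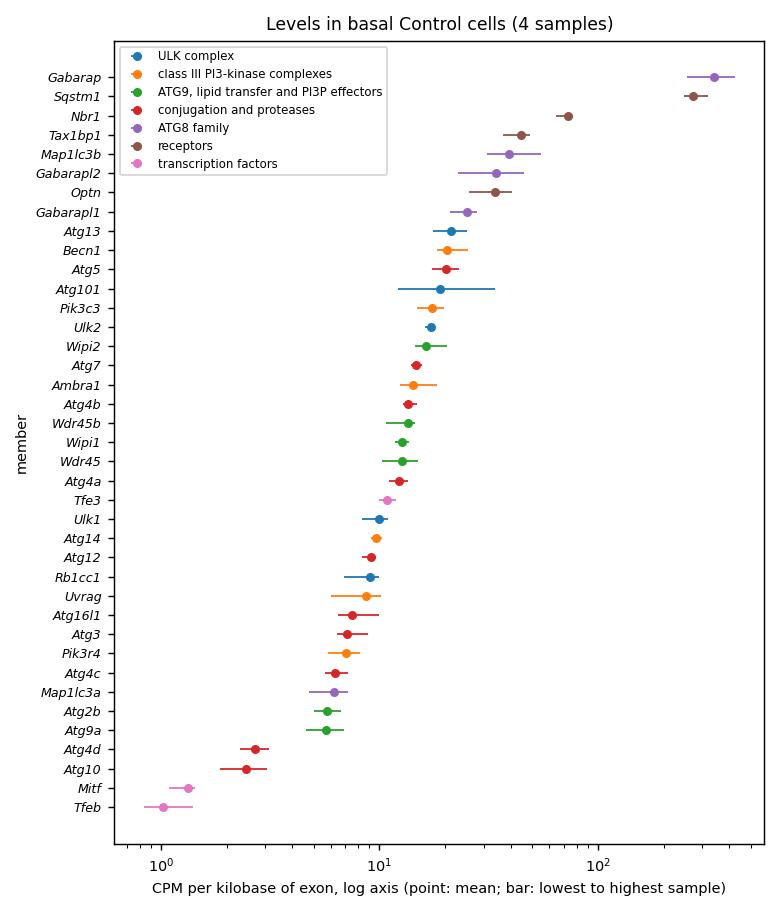
Level per length of the autophagy genes in basal Control cells. The log axis gives CPM per kilobase of exon, points are the means of 4 libraries, bars run from the lowest to the highest library, and colours mark the role. Gabarap (341 CPM per kb) and Sqstm1 (271 CPM per kb) lie above the other genes, and Mitf and Tfeb at the lower end.

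For the ATG8 genes on which the results turn, the sequence around the start is shown for 3: Gabarap (the gene that differed between genotypes in its response to insulin), Gabarapl1 (lower with insulin in every genotype) and Map1lc3b. The windows hold 250 bases before and 50 bases after the start of the RefSeq gene on GRCm38.p6, at chr11:69991120-69991419, chr6:129532942-129533241 and chr8:121590188-121590487, all on the plus strand. The GENCODE model of Gabarap begins earlier, at chr11:69991143, so most of its window lies inside that model. The GENCODE models of Gabarapl1 and Map1lc3b also begin within their windows, at chr6:129533160 and chr8:121590361. Capitals mark TAAACA, one of the forkhead cores searched, which lies in the Gabarapl1 window. Its first base is 94 bases before the start of the RefSeq gene, and nearer to the start of the GENCODE model.
Gabarap: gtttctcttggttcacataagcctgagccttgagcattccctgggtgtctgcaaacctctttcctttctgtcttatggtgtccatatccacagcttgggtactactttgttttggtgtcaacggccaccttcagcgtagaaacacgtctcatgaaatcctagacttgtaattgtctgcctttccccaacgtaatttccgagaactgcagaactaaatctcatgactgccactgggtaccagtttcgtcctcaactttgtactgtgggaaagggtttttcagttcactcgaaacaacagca
Gabarapl1: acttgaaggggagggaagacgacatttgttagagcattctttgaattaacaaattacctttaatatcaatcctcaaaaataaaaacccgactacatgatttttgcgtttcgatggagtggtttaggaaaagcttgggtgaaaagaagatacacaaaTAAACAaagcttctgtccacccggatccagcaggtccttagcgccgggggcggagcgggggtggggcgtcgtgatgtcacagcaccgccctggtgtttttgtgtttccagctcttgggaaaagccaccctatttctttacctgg
Map1lc3b: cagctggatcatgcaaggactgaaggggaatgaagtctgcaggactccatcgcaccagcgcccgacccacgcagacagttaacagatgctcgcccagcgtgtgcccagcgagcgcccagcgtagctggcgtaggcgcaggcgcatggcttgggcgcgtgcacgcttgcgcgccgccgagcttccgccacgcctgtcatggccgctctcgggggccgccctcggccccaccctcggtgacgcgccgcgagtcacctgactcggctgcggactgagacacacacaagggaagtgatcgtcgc
Of the 40 genes, 25 had a RefSeq window within 100 bases of the start of their RefSeq gene, and both strands of these were searched for the forkhead cores TAAACA and TAAATA, which can overlap each other, and for CACGTG, the core of the element that TFEB, TFE3 and MITF bind. TAAACA was found in 4 of the 25 windows (16.0%; Ambra1, Atg4a, Gabarapl1 and Wipi2), against 14% of 23796 windows of the same length over all genes. TAAATA was found in 16.0% of the windows of autophagy genes (Ambra1, Atg13, Atg4a and Tax1bp1) and 14.8% of all windows, and CACGTG in 12.0% (Atg14, Atg3 and Atg5) and 7.17%. These are matches of letters, and no match says only that the letters are not in the window.

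In the basal state, loss of both FoxK factors upregulated 8 of the 39 autophagy genes and downregulated 2. Upregulated were Ulk1, the kinase that starts autophagy; Becn1 and Uvrag of the class III PI3-kinase complexes; Wdr45 and Wipi1, which encode PI3P-binding WIPI proteins; Atg7 and Atg4a of the ATG8 conjugation system; and the ATG8 gene Map1lc3a. Downregulated were Gabarap, to 0.568 times its Control level, and Atg2b. The 8 upregulated genes made 20.5% of those tested and the 2 downregulated 5.13%, against 10.3% of all genes upregulated and 10.8% downregulated (21.1% called in either direction). The study names Wdr45 from these same libraries, so its call is not independent evidence of the direction. The median log2 fold change of the 39 genes was 0.15, with 27 above 0, beside a median of 0.00 and 49.9% above 0 over all genes. None of the 4 cargo receptors or the 3 transcription factors was called, and Tfeb measured 0.47 (SE 0.20, adjusted p = 0.0883). Over all genes, GC-rich genes had the higher DKD changes (Spearman's rho 0.48 across genes, which share the libraries and are not replicates). In a fit with offsets for GC content and length, 9 of the 10 calls were kept, Map1lc3a lost its call (0.45, adjusted p = 0.0974), and the ULK complex gene Rb1cc1 and the cargo receptor Tax1bp1 were called upregulated.

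**Figure D2:**
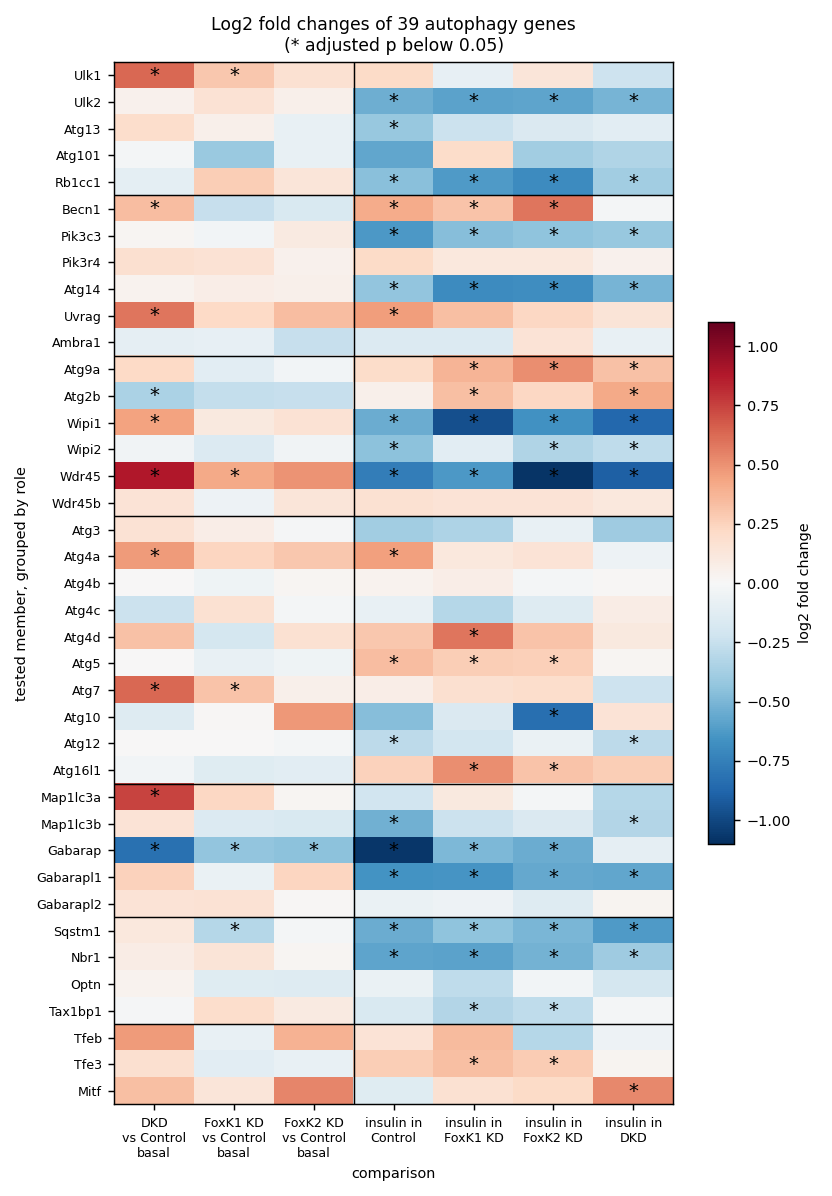
Log2 fold changes of the 39 autophagy genes tested (rows, grouped by role) in the 3 basal knockdown comparisons against Control and the 4 insulin comparisons (columns). Colour gives the log2 fold change and an asterisk marks an adjusted p below 0.05. DKD has 10 asterisks, FoxK1 KD 5 and FoxK2 KD 1, and insulin has 18 in Control.

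At the start of the pathway, Ulk1 (chr5:110784488-110810097, GRCm38) measured 54.0, 71.6, 63.9 and 68.6 CPM in Control and 91.9, 104, 105 and 101 CPM in DKD. Each DKD library lay above each Control library (log2 fold change 0.63, SE 0.09, adjusted p = 5.34e-06). The other ULK complex genes, Ulk2, Atg13, Atg101 and Rb1cc1, ranged from -0.11 to 0.19 and were not called without that offset, although without basal Control replicate 1 Atg101, the gene of a stabilising subunit, was called upregulated (0.39, adjusted p = 0.0481).

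Of the 6 genes of the class III PI3-kinase complexes, Becn1 and Uvrag were upregulated. Uvrag, which encodes the Beclin 1 partner of the endosomal complex, measured 54.3, 92.3, 81.2 and 85.2 CPM in Control and 115, 112, 121 and 127 CPM in DKD, without overlap (log2 fold change 0.59, SE 0.13, adjusted p = 0.00178). Becn1, the gene of Beclin 1, measured 180.0, 131, 132 and 130.3 CPM in Control and 185, 182, 166 and 186 CPM in DKD. The groups overlapped through the first Control library, which was the highest of its group (log2 fold change 0.34, SE 0.10, adjusted p = 0.0131), and the call was lost without basal Control replicate 4 (adjusted p = 0.0516). Becn1 shares 43.9% of its exon bases with Cntd1 on the opposite strand, which had 152 counts in all libraries together, and the strand setting of the counting is not given in the sources used here. Pik3c3, the catalytic subunit, did not pass the test (0.02, adjusted p = 0.917), nor did its partners Pik3r4, Atg14 and Ambra1.

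Among the PI3P effectors, Wdr45 (chrX:7714333-7728206) had the largest rise of the 39 genes and measured 49.5, 33.9, 46.8 and 38.1 CPM in Control against 76.2, 72.5, 89.1 and 72.2 CPM in DKD. The lowest DKD library lay well above the highest Control library (log2 fold change 0.88, SE 0.13, adjusted p = 1.19e-05). Wipi1 measured 52.1, 60.4, 54.5 and 57.7 CPM in Control and 69.0, 81.8, 81.2 and 73.0 CPM in DKD, again without overlap (log2 fold change 0.44, SE 0.09, adjusted p = 0.00102). The related genes Wipi2 (-0.04) and Wdr45b (0.15) were not called. Atg2b, the counterpart of Atg2a in lipid transfer, measured 89.7, 78.3, 74.8 and 67.7 CPM in Control and 66.2, 56.0, 65.1 and 56.6 CPM in DKD. The highest DKD library lay just below the lowest Control library (log2 fold change -0.35, SE 0.11, adjusted p = 0.0237), and the call was lost without basal Control replicate 1, DKD replicate 2 or DKD replicate 4 (adjusted p from 0.0615 to 0.0721).

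In the conjugation system, Atg7, the E1-like enzyme that activates ATG8 and ATG12, measured 109, 101, 103 and 97.8 CPM in Control and 158, 154, 154 and 165 CPM in DKD, with narrow groups far apart (log2 fold change 0.63, SE 0.09, adjusted p = 5.09e-06). Atg4a, one of the proteases that process ATG8 proteins, measured 29.4, 35.9, 34.7 and 31.4 CPM in Control and 52.4, 45.0, 42.5 and 41.2 CPM in DKD, without overlap (log2 fold change 0.47, SE 0.10, adjusted p = 0.000891). A processed copy, Atg4a-ps, matches Atg4a at 99.3% over 2115 bases and had 62 counts in all. The multimapping setting of the counting is not given in the sources used here, so how many Atg4a reads were affected cannot be told. The other 8 genes of this step, including Atg5, Atg12 and Atg16l1 of the E3-like complex, were not called.

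The ATG8 genes moved in opposite directions. Gabarap (chr11:69991143-69994951) measured 782, 471, 558 and 707 CPM in Control and 372, 351, 371 and 336 CPM in DKD. All 4 DKD libraries were below the lowest Control library, and the Control libraries were far more spread than the DKD libraries (log2 fold change -0.82, SE 0.11, adjusted p = 1.68e-06). Without basal Control replicate 1, the highest, the change was -0.70 (adjusted p = 3.26e-06). Map1lc3a, the gene of LC3A, measured 5.66, 8.48, 6.68 and 8.37 CPM in Control and 11.5, 12.2, 11.5 and 14.1 CPM in DKD, a low level but without overlap (log2 fold change 0.74, SE 0.19, adjusted p = 0.00396). Map1lc3b measured 0.15 (SE 0.10, adjusted p = 0.312), but 0.34 (adjusted p = 0.000465) without basal Control replicate 1, which held 412 CPM. Gabarapl1 and Gabarapl2 were not called.

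**Figure D3:**
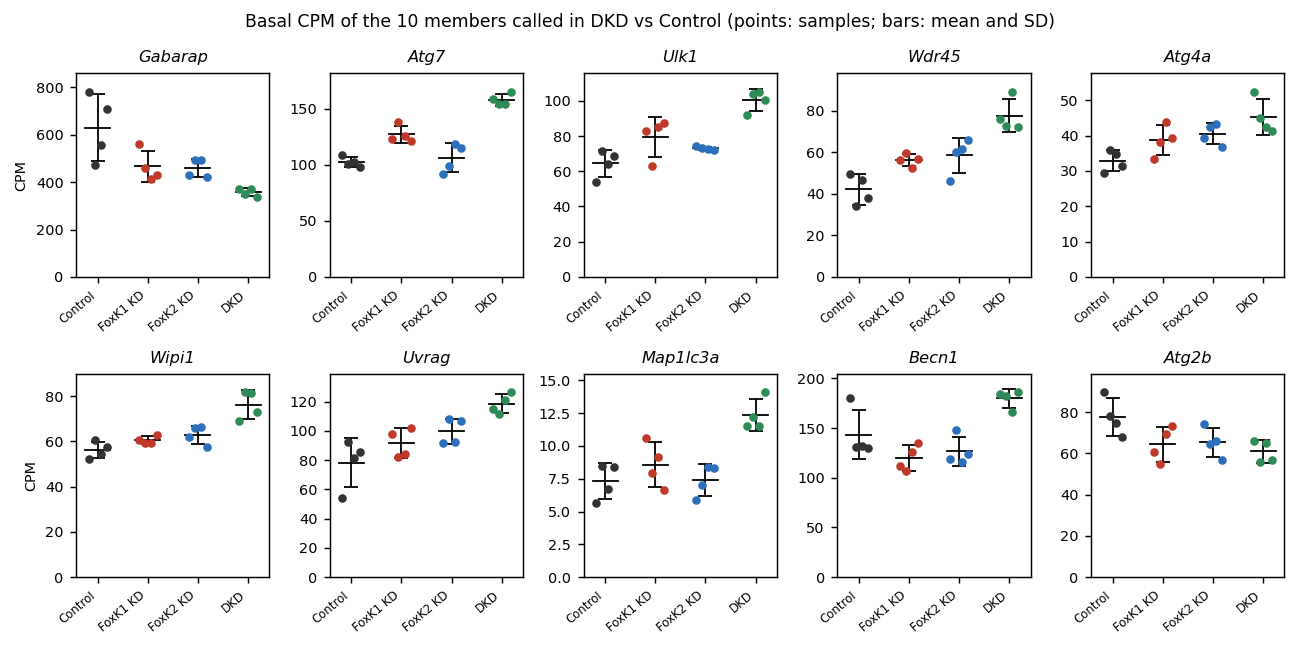
CPM of the 10 autophagy genes called in DKD against Control, in each basal library of the 4 genotypes, with the mean and SD (n = 4). The vertical axis of each panel is CPM on a linear scale. Gabarap is lowest in DKD (336 to 372 CPM), and Wdr45 is highest in DKD (72.2 to 89.1 CPM).

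The single knockdowns were compared with the same Control libraries. In FoxK1 KD, 3 of 39 were upregulated (Atg7, Ulk1 and Wdr45) and 2 were downregulated (Gabarap and Sqstm1), against 3.39% of all genes upregulated, 4.71% downregulated and 8.09% called in either direction. Wdr45 measured 56.4, 59.6, 52.3 and 56.6 CPM in FoxK1 KD (log2 fold change 0.42, SE 0.13, adjusted p = 0.0409), and Atg7 measured 123, 138, 126 and 121 CPM (log2 fold change 0.31, SE 0.09, adjusted p = 0.025). In both genes every FoxK1 KD library lay above every Control library. Ulk1 measured 83.1, 62.9, 85.0 and 87.3 CPM, of which the second library lay within the Control range (log2 fold change 0.30, SE 0.09, adjusted p = 0.03). Gabarap measured 563, 459, 415 and 430.0 CPM, the first of which reached into the Control range (log2 fold change -0.43, SE 0.11, adjusted p = 0.0101). Sqstm1, which encodes the receptor p62, measured 747, 636, 856 and 689.5 CPM in FoxK1 KD against 1072, 855, 883 and 834 CPM in Control, with overlap (log2 fold change -0.31, SE 0.09, adjusted p = 0.0262). Without basal Control replicate 1 the calls of Gabarap (adjusted p = 0.0787), Sqstm1 (0.16) and Ulk1 (0.13) were lost, and in a fit of the compared groups alone all 5 were lost (adjusted p from 0.145 to 0.281). Wdr45 lost its call without basal Control replicate 2 or 4, or FoxK1 KD replicate 1, 2 or 4 (adjusted p from 0.0709 to 0.11). Atg7 lost it without FoxK1 KD replicate 2 (0.0904), and Sqstm1 without FoxK1 KD replicate 2 or 4 (0.118 and 0.0741). Ulk1 also lost it without basal Control replicate 3, or FoxK1 KD replicate 1, 3 or 4 (0.0548 to 0.101).

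In FoxK2 KD, Gabarap was the only gene of the 39 called, against 0.167% of all genes downregulated and 0.378% called in either direction. It measured 432, 492, 492 and 422 CPM, of which replicates 2 and 3 lay above the lowest Control library (log2 fold change -0.45, SE 0.11, adjusted p = 0.0406), and the call was lost without basal Control replicate 1 (-0.33, adjusted p = 0.18). Leaving out any 1 FoxK2 KD library also lost the Gabarap call (adjusted p from 0.0772 to 0.167). No gene was called upregulated by edgeR with the filter and no offsets, and 9 had an unadjusted p below 0.05 in either direction. The share of all genes at that unadjusted cutoff was not computed. DESeq2, and edgeR with no filter or with offsets for GC content and length, called Wdr45 higher besides Gabarap. Neither was called by limma-voom. Wdr45 measured 46.2, 60.3, 61.5 and 65.8 CPM in FoxK2 KD (log2 fold change 0.49, SE 0.13, adjusted p = 0.0813). Mitf measured 0.54 (adjusted p = 0.136). All 3 knockdown comparisons use the same 4 Control libraries.

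DKD was also compared directly with each single knockdown. Against FoxK1 KD, 14 of 39 genes were higher and 3 were lower in DKD, against 13.8% and 12.5% of all genes (26.3% either way), and against FoxK2 KD, 7 were higher and 1 was lower, against 8.56% and 8.44% (17.0% either way). Gabarap was lower in DKD than in FoxK1 KD (-0.39, SE 0.11, adjusted p = 0.00815) and FoxK2 KD (-0.36, SE 0.11, adjusted p = 0.0182), and Becn1 was higher (0.59, adjusted p = 8.97e-05, and 0.51, adjusted p = 0.000623). The Gabarap call was lost without FoxK1 KD replicate 1 (adjusted p = 0.0562), and without FoxK2 KD replicate 2 (0.0553) or 3 (0.0509). Becn1 kept its calls in every alternative. Over all genes, Spearman's rho of the change with GC content was 0.62 against FoxK1 KD and 0.59 against FoxK2 KD. With offsets for GC content and length, these counts fell to 4 higher and 1 lower against FoxK1 KD and to 2 higher and 1 lower against FoxK2 KD. The genes still called in both were Becn1 and Gabarap. Shares of all genes were not computed for the fit with offsets. Between FoxK1 KD and FoxK2 KD, edgeR called none of the 39 (4.02% of all genes, 2.13% higher and 1.89% lower). However, 7 had an unadjusted p below 0.05 (share over all genes not computed), and DESeq2 and limma-voom each called Sqstm1 lower in FoxK1 KD.

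Whether the DKD change equals the sum of the single changes was tested by a contrast of the 4 basal genotypes. Foxk1 itself exceeded the sum by 0.55 (SE 0.17, edgeR adjusted p = 0.031). It stood at 0.568 times Control in DKD and 0.455 times in FoxK1 KD, a direct difference of 0.32 (adjusted p = 0.0582). Foxk2 was also lower in FoxK1 KD than in Control (-0.26, SE 0.08, adjusted p = 0.0487). The part of these target levels in the departures below was not tested. Becn1 exceeded the sum by 0.76 (SE 0.14, adjusted p = 0.00152): its change was -0.25 in FoxK1 KD and -0.17 in FoxK2 KD, neither of which passed the test, and 0.34 in DKD. Becn1 libraries measured 112, 107, 126 and 135 CPM in FoxK1 KD and 119, 148, 115 and 124 CPM in FoxK2 KD, all below the lowest DKD library of 166 CPM. Of the 39 autophagy genes, 3 were above the sum and 1 (Rb1cc1) was below it, against 6.8% and 5.56% of all genes (12.4% either way). Becn1 kept its call with offsets for GC content and length, whereas Map1lc3b, Sqstm1 and Rb1cc1 did not (adjusted p from 0.152 to 0.976). Without basal Control replicate 1, Map1lc3b (0.25, adjusted p = 0.0951) and Sqstm1 (0.35, adjusted p = 0.0582) lost their calls. Becn1 then exceeded the sum by 0.62 (adjusted p = 0.00268), with changes of -0.12 in FoxK1 KD, -0.04 in FoxK2 KD and 0.46 in DKD. For Gabarap the departure was 0.07 (SE 0.15, adjusted p = 0.806).

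Insulin stimulation of Control cells downregulated 14 of the 39 autophagy genes and upregulated 4, against 13.1% of all genes downregulated and 12.4% upregulated (25.4% either way). Lower were 3 of the 5 ULK complex genes, 3 of the 6 genes of the ATG9, ATG2 and WIPI group, 3 of the 5 ATG8 genes, 2 of the 4 cargo receptors, 2 of the 6 PI3-kinase genes and 1 of the 10 conjugation genes. Higher were Atg4a and Atg5 of the conjugation system and Becn1 and Uvrag of the PI3-kinase complexes. None of the 3 transcription factor genes was called, but Tfe3 was higher with a filter at a mean of 5 CPM. Without basal Control replicate 1, Uvrag lost its call (0.33, adjusted p = 0.068), and Atg16l1 (0.41, adjusted p = 0.000878) and Tfe3 (0.32, adjusted p = 0.028) were called higher and Tax1bp1 lower (-0.24, adjusted p = 0.0384). The median change of the 39 genes was -0.15, beside -0.01 over all genes.

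Of the ATG8 genes, Gabarap, Gabarapl1 and Map1lc3b were lower. Gabarap measured 782, 471, 558 and 707 CPM in basal Control and 312, 306 and 281 CPM after insulin, with every insulin library below the lowest basal library (log2 fold change -1.07, SE 0.12, adjusted p = 2.67e-08). Gabarapl1 (chr6:129533160-129542346) measured 52.3, 51.9, 42.3 and 56.5 CPM before and 36.6, 28.4 and 31.0 CPM after insulin, without overlap (log2 fold change -0.66, SE 0.12, adjusted p = 0.000124). Map1lc3b measured 412, 251, 234 and 283 CPM before and 211, 201 and 201 CPM after insulin. The insulin libraries were all lower and nearly equal (log2 fold change -0.53, SE 0.11, adjusted p = 0.000481), and the change was -0.32 (adjusted p = 0.00153) without basal Control replicate 1. Gabarap was -0.95 (adjusted p = 2.65e-08) without that library.

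Cargo receptors fell as well. Sqstm1 measured 1072, 855, 883 and 834 CPM before and 624, 663 and 572 CPM after insulin (log2 fold change -0.55, SE 0.10, adjusted p = 6.22e-05). Nbr1, which like p62 binds ubiquitin and ATG8 proteins, measured 510.2, 531, 521 and 444 CPM before and 313, 358 and 338 CPM after insulin (log2 fold change -0.58, SE 0.08, adjusted p = 1.94e-06). In neither gene did the groups overlap. Optn (-0.07) and Tax1bp1 (-0.17), the other receptors on the list, were not called with all libraries in the fit.

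At the initiation and PI3P steps, Pik3c3 measured 88.6, 75.1, 81.0 and 66.5 CPM before and 50.5, 44.1 and 55.5 CPM after insulin (log2 fold change -0.63, SE 0.10, adjusted p = 1.05e-05), and Ulk2, a kinase related to Ulk1, measured 104, 107, 97.0 and 107 CPM before and 81.3, 64.0 and 67.4 CPM after insulin (log2 fold change -0.54, SE 0.10, adjusted p = 9.86e-05). Neither overlapped. Rb1cc1 (-0.46), Atg14 (-0.43) and Atg13 (-0.42) were also lower, whereas Ulk1 was 0.21 (adjusted p = 0.121). Wdr45 measured 25.8, 24.0 and 24.1 CPM after insulin, all below the lowest basal library of 33.9 CPM (log2 fold change -0.76, SE 0.16, adjusted p = 0.000485). Wipi1 measured 43.2, 38.8 and 32.9 CPM after insulin (log2 fold change -0.55, SE 0.11, adjusted p = 0.000239), and Wipi2 measured 215, 155, 167 and 153 CPM before and 133, 119.5 and 125 CPM after insulin (log2 fold change -0.45, SE 0.09, adjusted p = 0.000413). Each of Wdr45, Wipi1 and Wipi2 was lower in every insulin library than in any basal library, whereas Wdr45b, the remaining WIPI gene, was 0.17 (adjusted p = 0.209). In a fit of the 2 Control groups alone, 9 of the 18 calls were kept, and those of Atg5, Atg12, Atg13, Atg14, Becn1, Map1lc3b, Rb1cc1, Uvrag and Wipi2 were lost (adjusted p from 0.0568 to 0.153).

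Insulin also lowered autophagy genes in the knockdowns. It downregulated 11 of 39 genes and upregulated 7 in FoxK1 KD (15.4% and 16.2% of all genes, 31.6% either way), 13 and 5 in FoxK2 KD (13.7% and 14.4%, 28.1% either way), and 12 and 3 in DKD (7.99% and 8.31%, 16.3% either way). Of the 39 genes, 26 were called in at least 1 of the 4 genotypes and none in opposite directions. The matching shares over all genes were not computed, for these counts or for those of genes called in all 4 genotypes. Lower in all 4 genotypes were 9: Ulk2, Rb1cc1, Pik3c3, Atg14, Wipi1, Wdr45, Gabarapl1, Sqstm1 and Nbr1. Wipi1 fell by 0.97 in FoxK1 KD, 0.67 in FoxK2 KD and 0.86 in DKD on the log2 scale, and Wdr45 fell by 0.63, 1.08 and 0.90. No gene was higher in all 4. Atg9a, the gene of the membrane protein of autophagosome precursor vesicles, was called higher in FoxK1 KD (0.37), FoxK2 KD (0.51) and DKD (0.32), and was 0.20 (adjusted p = 0.221) in Control. In FoxK1 KD the Atg9a call was lost in 4 of 17 alternatives, the GC and length offset among them (0.20, adjusted p = 0.222), and in DKD in 9 of 16, when any 1 DKD library was left out, by DESeq2 and with no filter (adjusted p from 0.065 to 0.14). Becn1 was higher in FoxK1 KD (0.31) and FoxK2 KD (0.59), and was -0.02 (adjusted p = 0.918) in DKD. Over all genes, Spearman's rho of the insulin change with GC content was 0.34 in FoxK1 KD, 0.25 in FoxK2 KD and -0.22 in DKD. With offsets for GC content and length, 15 of the 39 genes were lower and 6 higher in FoxK1 KD. These numbers were 13 and 4 in FoxK2 KD, and 11 and 3 in DKD. The shares of all genes given above are from the fit without offsets, and those under the offsets were not computed.

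**Figure D4:**
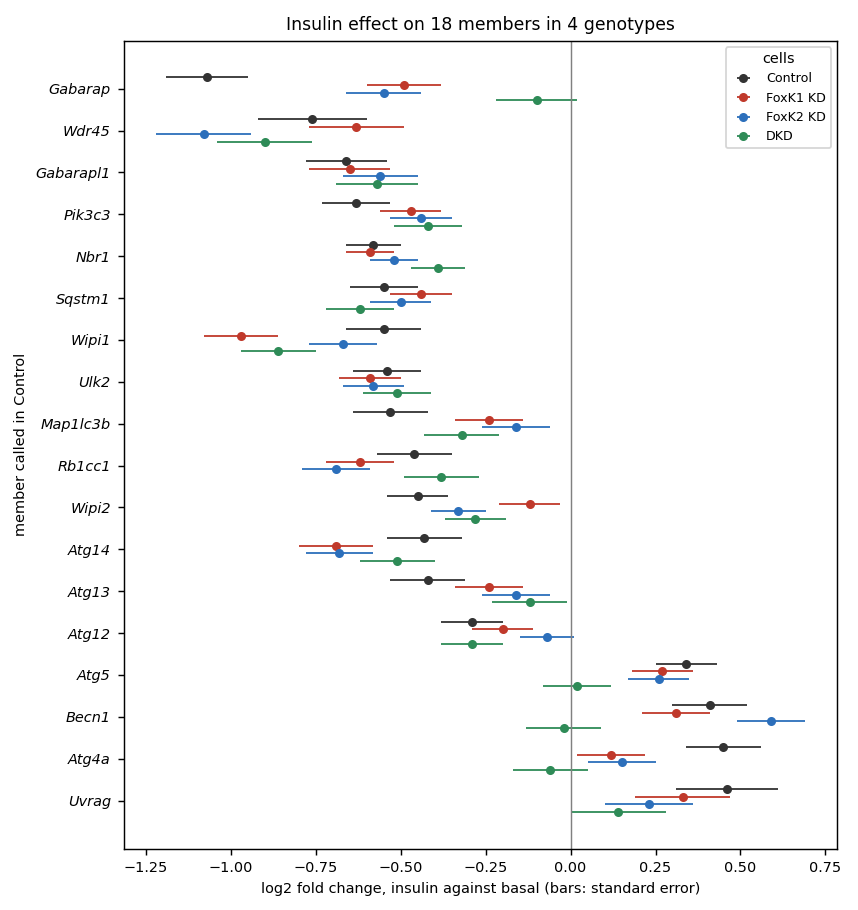
Log2 fold change with insulin (point) and its SE (bar) in each of the 4 genotypes for the 18 autophagy genes called in Control. Most genes lie on the same side of 0 in the 4 genotypes, whereas Gabarap lies at -1.07 in Control and -0.10 in DKD.

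Whether the insulin effect differed between genotypes was tested by the difference of the 2 effects. Between DKD and Control, Gabarap was the only one of the 39 genes called (1.54% of all genes called in either direction). Its insulin effect was -1.07 in Control and -0.10 (SE 0.12, adjusted p = 0.616) in DKD, a difference of 0.97 (SE 0.16, adjusted p = 0.00103). The 3 insulin-treated DKD libraries measured 304, 322 and 373 CPM, beside 372, 351, 371 and 336 CPM in basal DKD, so these groups overlapped. After insulin, Gabarap averaged 299 ± 16.5 CPM in Control (SD, n = 3), 333 ± 16.1 in FoxK1 KD, 313 ± 19.1 in FoxK2 KD (each n = 4) and 333 ± 35.9 in DKD (n = 3), and no knockdown passed the test against Control. In the basal state the means were 629 ± 141, 467 ± 66.7, 459 ± 37.9 and 357 ± 17.4 CPM (n = 4 each). The genotype means thus ran from 357 to 629 CPM without insulin and from 299 to 333 CPM with it. Without basal Control replicate 1 the difference was 0.85 (adjusted p = 0.00115), and Becn1 was called as well (-0.56, adjusted p = 0.014). The basal Control libraries enter both the basal DKD comparison and this difference.

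For the single knockdowns, edgeR called no difference in the insulin effect from Control in any of the 39 genes (0.0% of all genes). An unadjusted p below 0.05 was found for 6 genes in FoxK1 KD and 3 in FoxK2 KD (share over all genes not computed). Neither DESeq2 nor limma-voom called any of the 39. With no filter on low counts, edgeR called Gabarap in FoxK1 KD. Gabarap differed by 0.58 (SE 0.16, adjusted p = 0.163) in FoxK1 KD and by 0.52 (SE 0.16, adjusted p = 0.883) in FoxK2 KD.

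**Figure D5:**
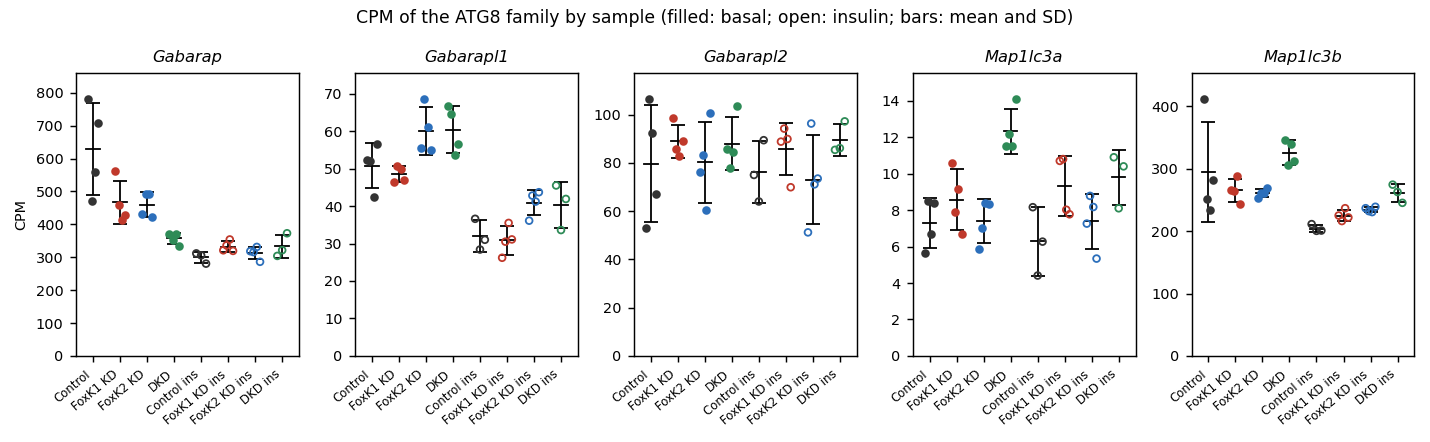
CPM of the 5 ATG8 genes in every library of the 8 groups (filled points basal, open points insulin), on linear axes. Gabarap falls with insulin from 471 to 782 CPM down to 281 to 312 CPM in Control and overlaps in DKD, and Gabarapl1 is lower with insulin in all 4 genotypes.

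Insulin-treated knockdown and Control cells differed in few of these genes. In DKD, 3 of 39 were higher than in insulin-treated Control and none was lower (0.871% and 0.343% of all genes, 1.21% either way). Mitf, a transcription factor of the TFEB family, measured 8.95, 7.25 and 6.27 CPM in Control and 14.4, 17.8 and 13.7 CPM in DKD, without overlap (log2 fold change 0.99, SE 0.19, adjusted p = 0.00383). Wdr45 measured 52.5, 39.8 and 31.5 CPM in insulin-treated DKD, above the 25.8, 24.0 and 24.1 CPM of Control (0.74, SE 0.17, adjusted p = 0.0185). It lost the call without DKD replicate 1 (0.51, adjusted p = 0.238), Control replicate 2 (adjusted p = 0.0739) or Control replicate 3 (adjusted p = 0.0821). Atg13, the gene of a ULK complex subunit, measured 72.4, 79.8 and 55.8 CPM in Control and 101, 90.7 and 100.3 CPM in DKD, without overlap (0.49, SE 0.12, adjusted p = 0.0208). It lost the call without Control replicate 3 (0.36, adjusted p = 0.212), DKD replicate 1 (adjusted p = 0.0945) or DKD replicate 3 (adjusted p = 0.0929). In a fit of these 2 groups alone none of the 3 was called (adjusted p from 0.0903 to 0.148). In FoxK1 KD, edgeR called Atg7 alone (0.41, adjusted p = 0.0122), against 1.86% of all genes higher and 1.72% lower (3.59% either way). DESeq2, and edgeR with no filter or with the compared groups alone, each called Becn1 (lower) and Wdr45 (higher) besides. In FoxK2 KD edgeR, DESeq2 and limma-voom called none (0.0088% of all genes higher and 0.0176% lower by edgeR, 0.0264% either way). By edgeR, 5 had an unadjusted p below 0.05 (share over all genes not computed).

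At the thresholds of the study's own linear models (adjusted p below 0.25, and for insulin also a fold change above 1.5), the same fit called 18 of the 39 genes in DKD, 12 in FoxK1 KD and 4 in FoxK2 KD, beside 43.6%, 26.6% and 3.59% of all genes. With insulin it called 4 in Control, 8 in FoxK1 KD, 6 in FoxK2 KD and 3 in DKD, beside 12.0%, 12.9%, 10.7% and 8.49% of all genes, and 2 in the difference of insulin effects between DKD and Control, beside 4.04%.

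Of a further 60 genes of the pathway (upstream kinases, regulators, tethering and fusion factors, and receptors of mitochondria and endoplasmic reticulum), 55 could be tested. In basal DKD 8 were upregulated and 10 were downregulated, beside the 10.3% and 10.8% of all genes given above. Calcoco1, a receptor for endoplasmic reticulum and Golgi, was 0.55 (adjusted p = 6.45e-05), Pink1, the kinase that marks damaged mitochondria, was 0.53 (adjusted p = 0.00205) and Tecpr1, a tethering factor, was 0.37 (adjusted p = 0.00168). Bnip3, a receptor for mitochondria, was -0.91 (adjusted p = 5.96e-05), Fnip1, a partner of folliculin, was -0.44 (adjusted p = 0.000478) and Retreg1, a receptor for endoplasmic reticulum, was -0.42 (adjusted p = 0.000901). Insulin in Control cells downregulated 11 of the 55 and upregulated 5 (13.1% and 12.4% of all genes). Deptor, an inhibitor of mTOR, was -1.47 (adjusted p = 3.32e-12), Calcoco1 was -1.40 (adjusted p = 2.7e-11) and Pink1 was -1.08 (adjusted p = 2.34e-06), whereas Tecpr1 was 0.43 (adjusted p = 0.00037), Rptor, the mTORC1 subunit Raptor, was 0.37 (adjusted p = 0.00391) and Tmem41b, a lipid scramblase, was 0.35 (adjusted p = 0.00975). Calcoco1 and Pink1 were thus higher in basal DKD and lower after insulin in Control, and these comparisons share the basal Control libraries.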

How the data were processed

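RNA from AML12 cells was sequenced by the study on an Illumina platform from NEBNext mRNA libraries. The deposited values are raw counts per Ensembl gene, one table per library, which the authors made from reads aligned with STAR and assigned to genes with featureCounts on GRCm38.p4, as listed in the submitters' processing notes (STAR 2.4.2a, CASAVA 1.8). The strand and multimapping settings are not given in the sources used here. Identifiers were matched to symbols with GENCODE M21, which covered 48349 of 49089. Depth was 2141460 to 5668270 counts per library, so low genes such as Tfeb and Map1lc3a carry the larger counting error. No pair of replicates agreed within sampling noise (in 42 pairs, the lowest ratio of chi-square to its degrees of freedom was 1.7).

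Counts were filtered with filterByExpr, TMM-normalised and fitted in 1 model of the 8 groups with the quasi-likelihood test of edgeR 4.0.16 (R 4.3.3), with Benjamini-Hochberg adjustment over 11368 genes. The study used limma for its contrasts. The autophagy genes, the further pathway list, the markers and the tests were chosen with earlier results of these data known, and Wdr45 was included because the study names it on these data. Values by library are given for the genes called in DKD against Control and for those with the smallest adjusted p with insulin in Control (at most 10 each), for genes called in the difference of insulin effects, and for Foxk1, Foxk2 and Wdr45, together with genes called in single comparisons. Of the further list, up to 3 genes a direction are named. Replicate numbers of the labels did not pair the libraries (correlations of same-numbered libraries from -0.205 to 0.125), so no block was used. Alternatives were DESeq2 1.42.0, limma-voom (limma 3.58.1), DESeq2 size factors, other filters, offsets for GC content and length, the compared groups alone, the study's thresholds, a replicate block and leaving out each library.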

Additional observations from a re-analysis of the deposited data

Results flagged for a closer look

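In 114 groups of 4 libraries of the genes shown by library, the gap of the highest or lowest library to its nearest neighbour was compared with the group's range, a rule that chance meets in about 1 of 20 groups, and 3 exceeded Dixon's limit. Becn1 in basal Control replicate 1 measured 180.0 CPM, above 130.3 to 132 CPM in the other 3 libraries. Ulk1 in FoxK1 KD with insulin replicate 1 measured 70.4 CPM, below 76.3 to 77.2 CPM. Wdr45 in FoxK2 KD with insulin replicate 3 measured 33.3 CPM, above 25.5 to 26.6 CPM.

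The insulin effect on Gabarap differed between DKD and Control by 0.97 on the log2 scale (SE 0.16, edgeR adjusted p = 0.00103), with a range of 0.85 to 1.09 over the alternatives (adjusted p from 1.34e-09 to 0.026).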

How the results depend on the processing

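Of 353 values of the named genes under the alternatives, 343 kept their direction and their side of the threshold, 10 were no longer called (Map1lc3a, Becn1 and Atg2b in basal DKD, Wipi2 and Map1lc3b with insulin in Control) and 0 reversed. Numbers of autophagy genes called moved more, and shares over all genes were not computed for the alternatives other than the study's thresholds. At the study's thresholds 18 were called in basal DKD, 12 in FoxK1 KD, 4 in FoxK2 KD, 4 with insulin in Control, 8 in FoxK1 KD, 6 in FoxK2 KD, 3 in DKD and 2 in the difference of insulin effects. In fits of the compared groups alone 0 were called in FoxK1 KD, 0 in FoxK2 KD and 9 with insulin in Control. In FoxK2 KD, where 1 was called, limma-voom called 0, DESeq2 2, no filter 2, the replicate block 0, and the GC and length offset 2, also with the replicate block. The offset gave 2 in the difference of insulin effects, with and without the block. Leaving out each library gave 9 to 12 in basal DKD, 2 to 5 in FoxK1 KD, 0 to 1 in FoxK2 KD, 16 to 20 with insulin in Control, 15 to 19 in FoxK1 KD, 15 to 18 in FoxK2 KD, 10 to 14 in DKD and 1 to 2 in the difference. Except where the alternative itself used fewer libraries or another threshold, the cause was not tested. The replicate block kept all 10 calls in basal DKD and 4 of 5 in FoxK1 KD, losing Wdr45 (adjusted p = 0.0521). Per coding length, Gabarap stood at 1527.6, Sqstm1 at 652.5 and Nbr1 at 167 CPM per kb, against 341, 271 and 73.0 per exon length. At this depth, small changes of low genes such as Tfeb may have gone undetected.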

Other observations

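In the further pathway list, 2 of 55 genes were higher and 1 was lower in the insulin effect of DKD minus that of Control. Of all genes tested, 1.0% were higher and 0.537% were lower (1.54% either way). The genes of the list called in this difference are named here after their values were seen. Deptor, the gene of an inhibitor of mTOR, differed by 0.89 (SE 0.15, edgeR adjusted p = 0.000915), Bnip3 by 0.86 (SE 0.22, adjusted p = 0.0405), and Tsc2, which restrains mTORC1 as part of the tuberous sclerosis complex, by -0.51 (SE 0.13, adjusted p = 0.0337). Among other genes of the list called in basal DKD were Stk11, the gene of the kinase LKB1 (0.41, adjusted p = 0.00856), Sirt1 (-0.54, adjusted p = 0.0121) and Prkaa2, a catalytic subunit of AMP-activated kinase (-0.35, adjusted p = 0.0107), and Sec62, a receptor for endoplasmic reticulum, was lower with insulin in Control (-0.75, adjusted p = 3.45e-06).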
